A study of Mus musculus with 23 samples.

Results

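The 8 receptors described here were *Nr1i2* (the pregnane X receptor, PXR), *Nr1i3* (the constitutive androstane receptor, CAR), *Rxra*, *Rxrb*, *Vdr*, *Hnf4a*, *Hnf4g* and *Nr5a2*. They were taken as all probes of the array that the scanner files name by one of these symbols, which gave 14 probes for 8 of the 24813 genes named on the array. Expression was measured in the ileum, the last part of the small intestine, of male mice on 23 single-colour Agilent arrays. Wild-type (WT) C57BL/6J mice were bought at 6 weeks of age. The *Pxr*-/- mice, backcrossed on C57Bl/6J, had been bred in the animal house of the laboratory for 10 years. Genotype and breeding origin therefore cannot be told apart. The paper's methods give an age for the WT mice alone. Mice of both genotypes were acclimatized for 2 weeks. PCN (pregnenolone 16α-carbonitrile, a steroid that activates the mouse PXR) was injected into the peritoneum in corn oil at 100 mg/kg, once a day for 4 days, and controls (CONT) received the oil alone. All mice were killed at ZT6 (Zeitgeber time, hours after lights on), 6 h after the last injection, in the fed state per the labels. Group sizes were 6 each for WT CONT, *Pxr*-/- CONT and *Pxr*-/- PCN and 5 for WT PCN, with 1 array per sample. The part of the *Pxr* gene that was deleted is not given in the sources used here.

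PXR and CAR are nuclear receptors that sense drugs, steroids and bile acids and switch on genes for their metabolism and transport. Both bind DNA as a pair with a retinoid X receptor, RXRα (*Rxra*) or RXRβ (*Rxrb*), and so does the vitamin D receptor (*Vdr*), which controls calcium uptake in the intestine and also senses lithocholic acid. HNF4α (*Hnf4a*) and HNF4γ (*Hnf4g*) bind DNA as dimers of their own and maintain the enterocyte programme, and LRH-1 (*Nr5a2*) binds as a monomer and acts in crypt renewal and in bile acid and steroid metabolism. In the cytoplasm, PXR and CAR are held by chaperone complexes until a ligand or a signal releases them.

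The probes that carry the results are shown first, since a probe reports only the stretch of RNA that it matches. Each is 60 bases long, and its genome position is that of the mm9 build in the scanner files. The *Nr1i2* probe lies on the minus strand at chr16:38248745-38248804, and none of its 3 forward reading frames is free of stop codons. The *Vdr* probes A_52_P334562 and A_65_P19862 lie on the minus strand at chr15:97685136-97685195 and chr15:97685989-97686056. For these 3 probes the first 30 bases are given, in lower case.
Nr1i2 A_51_P266958: gttacagcacgaactcagatgtagatcccg
Vdr A_52_P334562: gaggcggaaatgggtaccaaaatgagagat
Vdr A_65_P19862: ttcccatattgcatgcagaaggctttattt
The 2 *Nr1i3* probes, at chr1:173147776-173147835 and chr1:173144301-173144529 on the plus strand, are given whole because they behaved differently on the same arrays. The second covers 229 bases of the genome and hence crosses an intron, and capitals mark the first ATG, the start codon of CAR.
Nr1i3 A_51_P358256: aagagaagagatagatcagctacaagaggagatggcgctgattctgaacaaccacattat
Nr1i3 A_55_P2746375: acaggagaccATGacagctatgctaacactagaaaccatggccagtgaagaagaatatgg

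All 8 receptors gave signal in the ileum of every group. Of the 14 probes, 13 were well above the local background on all 23 arrays and entered the tests. The exception was the *Nr1i3* probe A_55_P2746375, above background on 0 of 5 arrays of WT PCN and on 1 of 6 arrays of each other group. It has no usable level. Levels of different probes are not set against each other, since probes differ in how well they bind. On the 23 arrays the median spot signal lay between 74 and 106.5, the median local background between 19 and 28.5, and 60.9% to 67.3% of probes were well above background. All arrays were scanned on 1 day, on 8 slides and after washing in 2 baths (wash batches), each holding 2 or 3 arrays of every group. Ileal enterocyte markers (*Fabp6*, *Slc10a2*, *Slc51a*, *Slc51b* and *Apoa4*, 5 of 5 tested) had mean log2 signals of 14.78 to 15.67 on all arrays.

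No receptor probe was called for PCN or for genotype under the rule used throughout, a fold change above 1.5 (0.58 on the log2 scale) together with an adjusted p no higher than 0.05. Differences and their standard errors are on the log2 scale, from a limma fit over all 23 arrays with wash batch as a term, and the Benjamini-Hochberg adjustment covered the 37591 probes tested. With PCN in WT, 0 of 13 probes were called, against 0.689% of all probes, and 1 had an unadjusted p under 0.05. With PCN in *Pxr*-/- the count was again 0, against 0.939% of all probes. For genotype it was 0 without PCN (0.141% of all probes), 0 with PCN (0.364%) and 0 averaged over the treatments (0.396%). It was also 0 for PCN averaged over the genotypes (0.931%) and for the interaction, the PCN effect in *Pxr*-/- minus that in WT (0.0771%). With backgrounds under 1%, a count of 0 among 13 probes says nothing particular about the receptors. The numbers of receptor probes at an unadjusted p under 0.05 were, in the same order, 1, 1, 2, 1, 2, 3 and 0 of 13, against 11.8%, 19.5%, 8.88%, 7.07%, 10.3%, 24.1% and 4.49% of all probes.

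**Figure D1:**
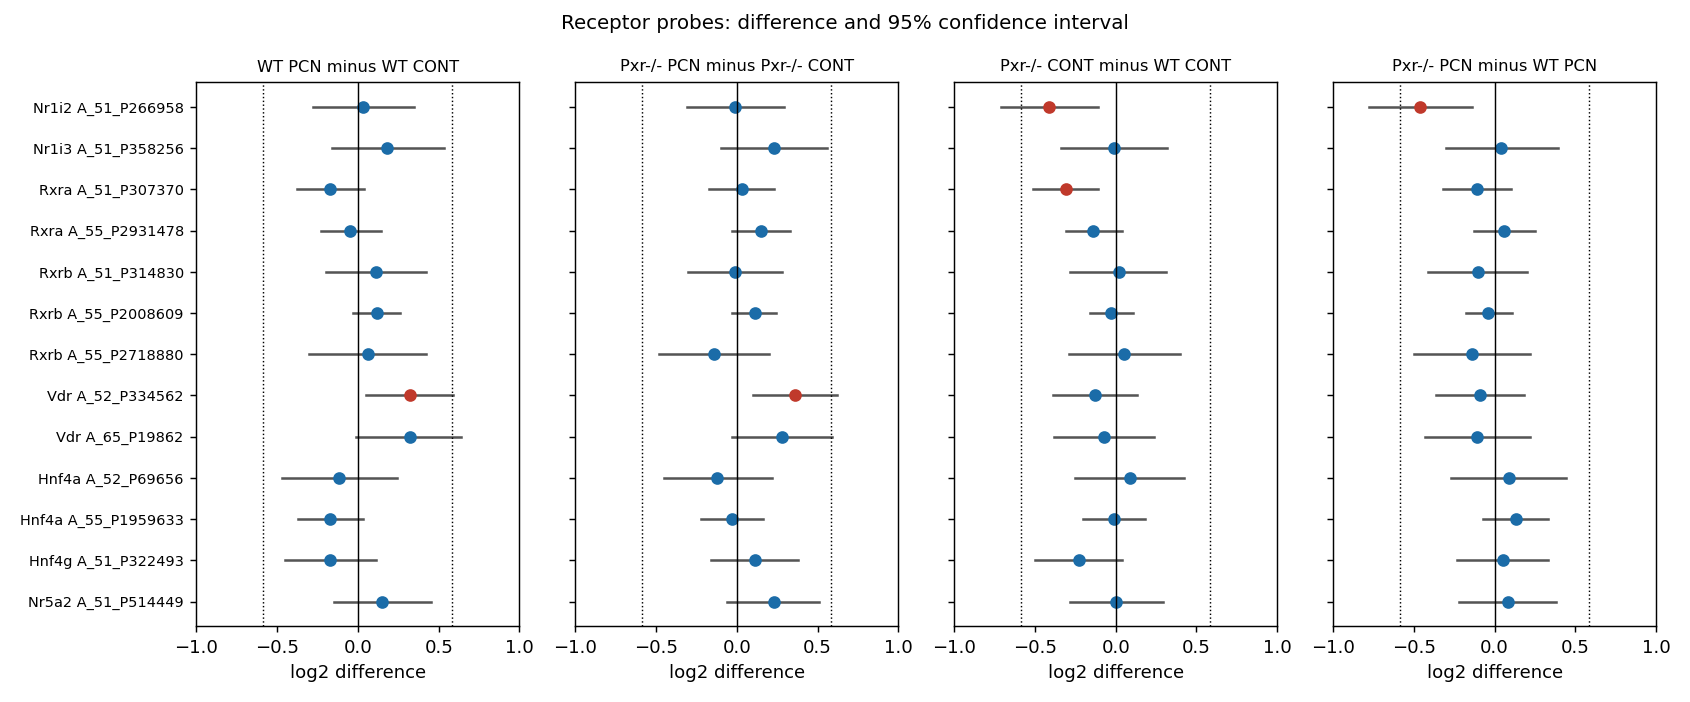
Log2 difference (point) and 95% confidence interval (line) of the 13 tested receptor probes in the 4 comparisons of pairs of groups. Red points have an unadjusted p under 0.05 and dotted lines mark a 1.5-fold change. The points lie between -0.46 and 0.36, all inside the dotted lines, and some intervals reach past them.

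The sizes that these arrays could have missed are given by the intervals. Over the 13 probes the 95% confidence intervals of the PCN effect reached from -0.47 to 0.64 in WT and from -0.48 to 0.62 in *Pxr*-/-. Those of the genotype difference reached from -0.71 to 0.42 without PCN and from -0.78 to 0.44 with PCN. The standard errors of the receptor probes for PCN in WT were 0.069 to 0.173, around the median of 0.102 over all probes tested. The median change of the 13 probes was 0.06 with PCN in WT and 0.11 in *Pxr*-/-.

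*Nr1i2*, the gene targeted in the knockout, still gave signal in *Pxr*-/- mice. Its normalized log2 signal had a low, a median and a high of 11.82, 12.20 and 12.36 in WT CONT, and the 5 WT PCN arrays read 12.53, 12.32, 11.57, 12.10 and 12.41. In *Pxr*-/- CONT the low, median and high were 11.42, 11.66 and 12.27, and in *Pxr*-/- PCN they were 11.38, 11.74 and 11.90. Most *Pxr*-/- arrays were lower than the WT arrays, but the genotypes overlapped: WT PCN replicate 3 lay at 11.57, and *Pxr*-/- CONT replicate 4 at 12.27. Of the 12 *Pxr*-/- arrays, 11 were below the WT mean.

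**Figure D2:**
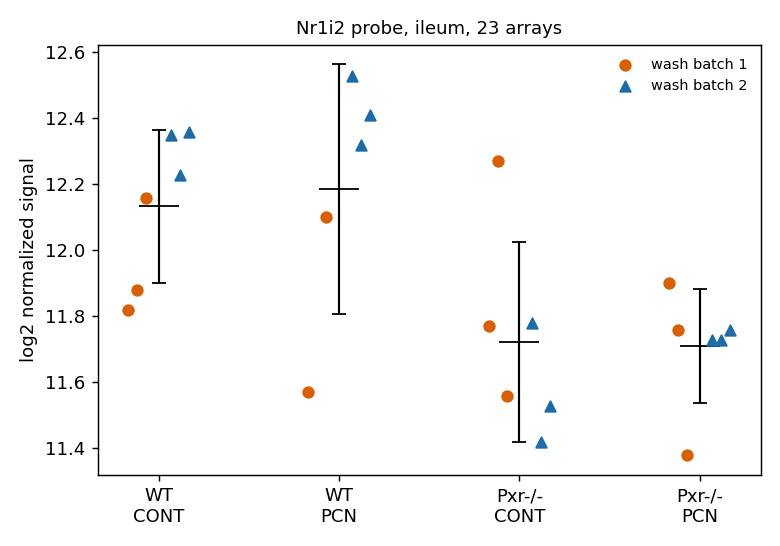
Normalized log2 signal of the *Nr1i2* probe on each of the 23 arrays by group, with circles for wash batch 1 and triangles for wash batch 2. Bars give mean ± SD. The triangles of WT (12.23 to 12.53) lie above those of *Pxr*-/- (11.42 to 11.78), whereas the circles of the genotypes overlap.

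Averaged over the treatments, the *Nr1i2* probe was lower in *Pxr*-/-, with a difference of -0.44 (SE 0.106, 95% CI -0.66 to -0.22, limma adjusted p = 0.0405), which is 0.74 of the WT level. It was the 1 of 13 receptor probes with an adjusted p of at most 0.05 in this comparison, as were 1.21% of all probes, and its size is under the fold threshold. In the single comparisons the difference was -0.41 (SE 0.146, adjusted p = 0.336) without PCN and -0.46 (SE 0.153, adjusted p = 0.327) with PCN. The PCN difference of the probe was 0.03 (SE 0.153, adjusted p = 0.966) in WT and -0.01 (SE 0.146, adjusted p = 0.974) in *Pxr*-/-.

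The genotype difference of *Nr1i2* was -0.12 (SE 0.156, adjusted p = 0.885) within wash batch 1 and -0.71 (SE 0.074, adjusted p = 0.001) within wash batch 2. In batch 2 the 6 WT arrays ran from 12.23 to 12.53 and the 6 *Pxr*-/- arrays from 11.42 to 11.78, without overlap, and the probe was called there both without PCN (-0.73, adjusted p = 0.0314) and with PCN (-0.68, adjusted p = 0.0266). In batch 1 the 5 WT arrays ran from 11.57 to 12.16 and the 6 *Pxr*-/- arrays from 11.38 to 12.27. The difference between the batches was -0.58 (SE 0.174, unadjusted p = 0.00337), with a limma adjusted p of 0.753 over all probes. None of the 37591 probes passed in that test, chosen after the within-batch values were seen, and 2460 had an unadjusted p under 0.05. Within batch 2 the difference lay between -0.76 and -0.67 when each of its 12 arrays was left out in turn. Over all 23 arrays, leaving out 1 array gave -0.51 to -0.39 and adjusted p-values of 0.0039 to 0.0832. The adjusted p stayed at or under 0.05 only without WT CONT replicate 1 or 3, WT PCN replicate 3, *Pxr*-/- CONT replicate 4, or *Pxr*-/- PCN replicate 2 or 5.

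Epithelial markers (8 genes) and ileal enterocyte markers (5 genes) had median genotype differences of 0.07 and 0.07 averaged over treatments, with 0 called and 2 and 1 at an unadjusted p under 0.05. Of the other marker lists, T cells had a median of 0.41, with 3 of 4 genes higher and 1 called. Liver genes had a median of -0.40, with 1 of 5 called lower. Of all genes, 0.615% were called in this comparison. Medians without calls were 0.30 for neutrophils, 0.20 for fibroblasts, 0.18 for smooth muscle, 0.01 for macrophages and -0.45 for B cells and Peyer patches. The part of cell make-up in the *Nr1i2* difference was not tested beyond these values.

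Other genes separated the genotypes where the *Nr1i2* probe did not. *Cyp3a41a*, a cytochrome P450 of the PXR-regulated *Cyp3a* family, had log2 signals of 8.86 to 11.67 in WT CONT and 13.08 to 15.09 in WT PCN, against 6.02 to 7.08 in *Pxr*-/- CONT and 5.73 to 7.15 in *Pxr*-/- PCN. No WT array lay within the *Pxr*-/- range, in either wash batch. *Cyp3a11*, the main PXR-inducible P450 of mouse, ran from 11.01 to 12.51 in WT PCN and from 6.17 to 7.08 in *Pxr*-/- PCN. In WT CONT it ran from 6.94 to 9.47, which overlapped the *Pxr*-/- range. By *Cyp3a41a* all 23 arrays stood on the side of their labelled genotype. The gene was named for its large change on these same arrays, so this is a description and no independent check of the labels.

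*Nr1i3* (CAR) was measured by the probe A_51_P358256, a dim one. Its log2 signal had a low, a median and a high of 7.26, 7.49 and 7.96 in WT CONT, 6.95, 7.57 and 7.89 in *Pxr*-/- CONT and 7.43, 7.59 and 8.36 in *Pxr*-/- PCN, and the WT PCN arrays ran from 7.34 to 8.03. All 4 groups overlapped. The PCN difference was 0.18 (SE 0.167, adjusted p = 0.735) in WT and 0.23 (SE 0.159, adjusted p = 0.438) in *Pxr*-/-. The genotype difference averaged over treatments was 0.02 (SE 0.115, 95% CI -0.22 to 0.26). Across the 23 arrays the signals of its 2 probes had a Pearson correlation of -0.35, as a description, with the second probe mostly at background.

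The RXR partners of PXR and CAR were not called either. The bright *Rxra* probe A_55_P2931478 averaged 14.73 ± 0.06 (SD, n = 6) in WT CONT and 14.69 ± 0.09 (n = 5) with PCN. The *Pxr*-/- arrays averaged 14.60 ± 0.17 (n = 6) in controls and 14.74 ± 0.20 (n = 6) with PCN. The PCN difference was -0.05 (95% CI -0.23 to 0.14) in WT and 0.15 (95% CI -0.03 to 0.33) in *Pxr*-/-. The dim *Rxra* probe A_51_P307370 was at 7.76 ± 0.18 in WT CONT (n = 6) and 7.45 ± 0.21 in *Pxr*-/- CONT (n = 6), a difference of -0.31 (SE 0.097, adjusted p = 0.248) that did not pass, and the bright probe differed by -0.14 (SE 0.086, adjusted p = 0.722) between the same groups. The 2 *Rxra* probes correlated at 0.46 across the arrays.

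*Rxrb* has 3 probes. The bright one, A_55_P2008609, averaged 12.57 ± 0.11 (SD, n = 6) in WT CONT and 12.69 ± 0.16 (n = 5) with PCN. The *Pxr*-/- arrays averaged 12.54 ± 0.07 (n = 6) in controls and 12.65 ± 0.07 (n = 6) with PCN. Averaged over genotypes the PCN difference was 0.11 (SE 0.047, 95% CI 0.01 to 0.21, adjusted p = 0.146). The probes A_51_P314830 and A_55_P2718880 cover 175 and 262 bases of the genome and hence cross introns. They were dim, with values of 7 to 8.07 and 6.88 to 7.99, and followed each other across the 23 arrays (r = 0.87), but followed the bright probe little (r = 0.37 and 0.15). Their PCN effects in WT, 0.11 (SE 0.149) and 0.06 (SE 0.173), were within their errors.

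*Vdr* had the largest PCN difference of the 8 receptors in both genotypes. For its brighter probe, A_52_P334562, the low, median and high were 12.51, 12.63 and 12.98 in WT CONT, and the WT PCN arrays read 13.13, 12.88, 12.98, 13 and 12.99. In *Pxr*-/- CONT they were 12.17, 12.56 and 13.15, and in *Pxr*-/- PCN 12.57, 12.96 and 13.12. All 5 WT PCN arrays lay above the WT CONT mean and all 6 *Pxr*-/- PCN arrays above the *Pxr*-/- CONT mean, but the ranges overlapped in both genotypes.

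**Figure D3:**
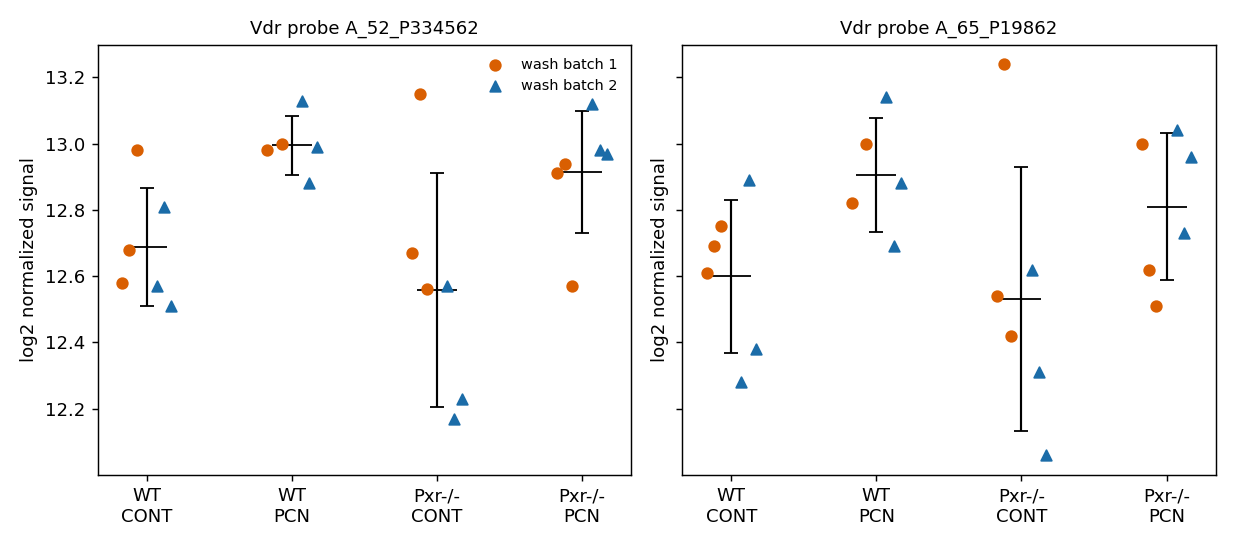
Normalized log2 signal of the 2 *Vdr* probes on each array by group, circles for wash batch 1 and triangles for wash batch 2, with mean ± SD as bars. Both PCN groups have higher means than their controls on both probes (for A_52_P334562, 13 against 12.69 and 12.92 against 12.56), with overlapping points.

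Averaged over genotypes, the *Vdr* probe A_52_P334562 was higher with PCN by 0.34 (SE 0.090, 95% CI 0.15 to 0.53, limma adjusted p = 0.0219), a fold of 1.26 and hence under the fold threshold. This was 1 of 13 receptor probes with an adjusted p of at most 0.05, against 8.90% of all probes in the same comparison, so the share is near the background. The other probe, A_65_P19862, gave 0.30 (SE 0.108, adjusted p = 0.0881). The 2 probes correlated at 0.90 across the 23 arrays. In each genotype taken alone, the PCN difference of A_52_P334562 was 0.32 (SE 0.131, adjusted p = 0.314) in WT and 0.36 (SE 0.125, adjusted p = 0.108) in *Pxr*-/-.

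Within wash batch 1 the averaged PCN effect on A_52_P334562 was 0.13 (SE 0.128, adjusted p = 0.823), and within wash batch 2 it was 0.54 (SE 0.088, adjusted p = 0.013). The difference between the batches was 0.40 (SE 0.157, unadjusted p = 0.0184, adjusted p = 1). In *Pxr*-/- alone the probe was called within batch 2, with 0.70 (SE 0.125, adjusted p = 0.0432), and gave 0.02 (SE 0.171) in batch 1. *Pxr*-/- CONT replicate 4, the highest array of its group at 13.15, lies in batch 1. Without it the change in *Pxr*-/- was 0.48 with an adjusted p of 0.0185, which passes the adjusted p alone. Leaving out each array in turn gave changes of 0.29 to 0.48 and adjusted p-values of 0.0185 to 0.237. Of these 23 fits, 2 passed the adjusted p.

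Markers of other cells moved along with PCN. In bulk tissue, fewer cells of a type and less RNA per cell cannot be told apart. Averaged over genotypes, the median change was 0.45 for 6 smooth muscle genes, all higher and 1 called. It was 0.48 for 5 fibroblast genes, all higher and 1 called, and 0.61 for 5 neutrophil genes, 4 higher and 3 called. Of all 17727 genes, 216 were called higher and 48 lower in this comparison, and the median of all genes was -0.01. For 7 genes of B cells and Peyer patches the median was 0.94 and for 6 macrophage genes 0.24, with 0 calls in both lists and 5 genes of each at an unadjusted p under 0.05. The 8 epithelial genes had a median of -0.13 with 0 calls, and 6 of them had an unadjusted p under 0.05. In WT the mean smooth muscle signal read 14.06 to 14.42 without PCN and 14.21 to 15 with it. For *Pxr*-/- it read 14.14 to 14.67 without PCN and 14.46 to 15.34 with it. The part of these cells in the *Vdr* difference was not tested.

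The enterocyte factors *Hnf4a* and *Hnf4g* did not pass in any comparison. The bright *Hnf4a* probe A_55_P1959633, at chr2:163398548-163398607, averaged 15.72 ± 0.15 (SD, n = 6) in WT CONT and 15.56 ± 0.20 (n = 5) with PCN. The *Pxr*-/- arrays averaged 15.71 ± 0.20 (n = 6) in controls and 15.68 ± 0.07 (n = 6) with PCN. The PCN difference was -0.17 (95% CI -0.37 to 0.03) in WT and -0.03 (95% CI -0.22 to 0.16) in *Pxr*-/-. The second *Hnf4a* probe, A_52_P69656 at chr2:163378302-163378361, differed by -0.12 with PCN in both genotypes (SE 0.170 and 0.161) and correlated at 0.08 with the first. *Hnf4g*, which has 1 probe, had its tightest group in WT CONT, 10.71 ± 0.09 (n = 6), and its widest in WT PCN, 10.53 ± 0.39 (n = 5). Its PCN effect was -0.17 (SE 0.137) in WT and 0.11 (SE 0.130) in *Pxr*-/-, with an interaction of 0.28 (SE 0.189, adjusted p = 0.999).

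*Nr5a2* (LRH-1) had a low, a median and a high of 11.24, 11.36 and 11.88 in WT CONT, 11.14, 11.41 and 11.79 in *Pxr*-/- CONT and 11.21, 11.67 and 12.21 in *Pxr*-/- PCN, and WT PCN ran from 11.25 to 11.75. The groups overlapped. The PCN difference was 0.15 (SE 0.144, adjusted p = 0.749) in WT and 0.23 (SE 0.137, adjusted p = 0.373) in *Pxr*-/-, and the genotype difference averaged over treatments was 0.04 (SE 0.1).

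The receptors' target genes and partners were counted with 1 probe per gene, the brightest tested, over 17727 genes. Of these, 1.05% were called with PCN in WT, 1.47% with PCN in *Pxr*-/- and 0.615% for genotype averaged over treatments. Of 20 tested PXR and CAR target genes, 20 were higher with PCN in WT and 17 were called. Their median change was 1.96, beside -0.02 for all genes. In *Pxr*-/- 14 of the 20 were higher, with a median of 0.25. At an unadjusted p under 0.05, 8 were higher and 1 was lower. The 2 called there were *Abcb1a* and *Abcb1b*, which encode the drug efflux pump P-glycoprotein. *Cyp2b10*, the classical CAR target, rose by 4.61 (SE 0.359, adjusted p = 9.52e-08) in WT. Its change in *Pxr*-/- was 0.72 (SE 0.342, adjusted p = 0.25). *Cyp2c55* rose by 3.51 (SE 0.469, adjusted p = 0.000155) in WT, and in *Pxr*-/- its 1.58 (SE 0.446) had an adjusted p of 0.0502. Averaged over treatments, 15 of the 20 were called lower in *Pxr*-/- and 1 was higher without a call, with a median of -1.58. Over all arrays the receptor probes differed by at most 0.46 in size, which was the *Nr1i2* probe between genotypes with PCN (-0.46). Within wash batch 2 that difference was -0.68. Whether the signal of this probe reflects working PXR in *Pxr*-/- mice was not tested. The list was made with the known response of these genes in view, so its direction is not independent evidence.

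**Figure D4:**
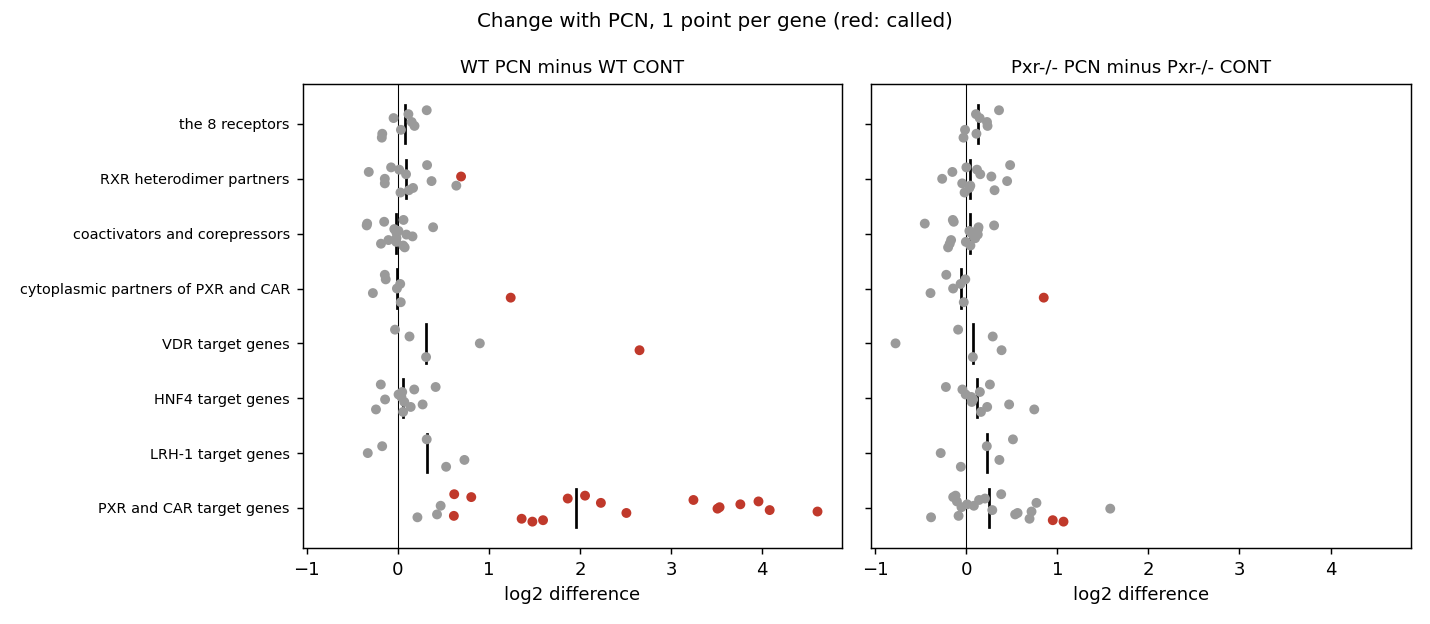
Log2 change with PCN in WT and in *Pxr*-/-, 1 point per gene, for the 8 receptors and the lists of their partners and targets. Red points are called, and the black line is the median of the list. The PXR and CAR targets have a median of 1.96 in WT and 0.25 in *Pxr*-/-, and none of the 8 receptors is red.

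Targets of the vitamin D receptor moved unevenly. *S100g*, the intestinal calcium-binding protein calbindin-D9k, rose by 2.65 (SE 0.498, adjusted p = 0.00526) with PCN in WT, where its low, median and high were 7.48, 9.19 and 9.72 in CONT and it ran from 10.83 to 12.80 with PCN. Its change in *Pxr*-/- was 0.39 (SE 0.474, adjusted p = 0.695). There it ran from 9.37 to 10.71 in CONT and from 8.88 to 12.01 with PCN, which overlapped WT PCN. The difference between the PCN effects was -2.27 (SE 0.687), with an adjusted p of 0.672. Without PCN, *S100g* was higher in *Pxr*-/- than in WT by 1.02 (SE 0.474, adjusted p = 0.534). *Trpv6*, the apical calcium channel, was close to background and differed by -0.03 (SE 0.073) with PCN in WT. *Cyp24a1*, which degrades vitamin D, was not above background in any group by the rule used. Of the 5 VDR targets tested, *S100g* was the 1 called. At an unadjusted p under 0.05, 3 of the 5 were higher with PCN in WT and 0 lower. In *Pxr*-/- 1 was higher and 1 was lower.

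Of 12 HNF4 target genes, 0 were called in any of the 7 comparisons, with 0 at an unadjusted p under 0.05 for PCN in WT and 3 for genotype without PCN. Of 5 tested LRH-1 targets, *Abcg5* and *Abcg8*, which together form the sterol exporter of the enterocyte, were lower in *Pxr*-/- averaged over treatments, with differences of -0.63 (SE 0.079, adjusted p = 5.72e-05) and -0.65 (SE 0.138, adjusted p = 0.0173). Without PCN their differences were -0.33 (SE 0.109, adjusted p = 0.274) and -0.47 (SE 0.190, adjusted p = 0.443). With PCN they were -0.92 (SE 0.114, adjusted p = 4.44e-05) and -0.84 (SE 0.200, adjusted p = 0.0572). PCN changed the pair by 0.53 (adjusted p = 0.0176) and 0.73 (adjusted p = 0.0807) in WT. In *Pxr*-/- the changes were -0.06 and 0.36, and the interaction was called for neither gene. Other nuclear receptors regulate this pair too. *Nr0b2* (SHP), a corepressor induced by LRH-1, was not above background.

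Among the cytoplasmic partners of PXR and CAR, 1 of 7 was called. *Fkbp5*, a co-chaperone of steroid receptors and a well known glucocorticoid target, rose with PCN by 1.24 (SE 0.217, adjusted p = 0.00285) in WT and by 0.85 (SE 0.206, adjusted p = 0.0246) in *Pxr*-/-. Of 16 coactivators and corepressors tested, 0 were called in any of the 7 comparisons, with 3 at an unadjusted p under 0.05 for PCN in WT. Among them *Ncor1* differed by 0.01 (SE 0.069), *Ncoa1* by -0.10 (SE 0.070) and *Ppargc1a* by -0.34 (SE 0.168, adjusted p = 0.44) with PCN in WT.

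Across the nuclear receptor superfamily, 43 of 49 genes were tested, and *Nr0b1*, *Nr0b2*, *Rorb*, *Nr1h5*, *Nr2e1* and *Pgr* were not above background. With PCN in WT 1 of the 43 was called, against 1.05% of all genes. This was *Pparg*, the fat-cell and colonocyte receptor that pairs with RXR, which rose by 0.70 (SE 0.170, adjusted p = 0.0419), and differed by 0.28 (SE 0.162, adjusted p = 0.358) in *Pxr*-/-. It was also the 1 called of 13 RXR heterodimer partners outside the set. For genotype averaged over treatments it was again 1 of 43, against 0.615% of all genes. Here *Esrrg*, an orphan receptor of energy metabolism, was higher in *Pxr*-/- by 0.97 (SE 0.135, adjusted p = 0.000237). Its WT CONT arrays read 5.93 to 6.36 and its *Pxr*-/- CONT arrays 6.70 to 7.76, without overlap. With PCN the genotypes overlapped, at 5.99 to 6.89 in WT and 6.56 to 7.71 in *Pxr*-/-, and the difference was 0.83 (SE 0.195, adjusted p = 0.054). *Nr6a1*, the germ cell nuclear factor, was lower in *Pxr*-/- PCN than in WT PCN, with a difference of -0.73 (SE 0.170, adjusted p = 0.0484). It was the 1 of 43 called in that comparison, in which 13 of all 17727 genes were called higher and 83 lower. A single call among 43 genes says little beside such shares. *Rxrg*, the third RXR, lay between 5.89 and 6.52 on all arrays and differed by -0.01 (SE 0.092) with PCN in WT. *Nr3c1*, the glucocorticoid receptor, differed by -0.01 (SE 0.141) with PCN in WT and by 0.12 (SE 0.134) in *Pxr*-/-.

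The genes most like the *Nr1i2* probe were found by Pearson correlation over the 23 arrays among 17726 other genes, as a description, since arrays share group, wash batch and tissue make-up. They were *Wdtc1* (0.81), *Hsd17b11* (0.81), *Tmem50a* (0.79), *Pigx* (0.77) and *Nprl3* (0.75). Within wash batch 1 and 2, *Pigx* correlated with *Nr1i2* at 0.57 and 0.93. Of the 5, *Pigx* was the 1 called for genotype, at -0.92 (SE 0.096, adjusted p = 3.36e-06) in *Pxr*-/- averaged over treatments. For *Nr1i3* the nearest were *Pip4p2* (0.91), *Rergl* (0.90), *Clec4a2* (0.89), *1700030M09Rik* (0.88) and *St6galnac1* (0.88), and 0 of these were called for genotype or PCN, averaged over the other factor.

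*Pigx* lies on chromosome 16, 6.16 Mb from *Nr1i2*, and the genes around *Nr1i2* were therefore looked at, a choice made after these values were seen. Of 148 genes tested within 10 Mb of the *Nr1i2* probe, 8 were called for genotype averaged over treatments, which is 5.41%, against 97 of 17137 genes on the other chromosomes, which is 0.566%. Within 5 Mb it was 3 of 68. By whole chromosome, the share called was 2.11% on chromosome 16 (12 of 568 genes) and nearly the same on chromosome 19, at 2.09% (13 of 622), followed by chromosome 5 at 1.29% (14 of 1089). *Arhgap31*, 0.35 Mb away at chr16:38598803-38598862, was lower in *Pxr*-/-, with a difference of -0.94 (SE 0.064, adjusted p = 2.82e-09), with WT arrays at 9.31 to 10.14 and *Pxr*-/- arrays at 8.63 to 9. *Pigx*, at chr16:32087389-32087448, ran from 11.17 to 11.48 in WT and from 10.05 to 10.84 in *Pxr*-/-. Neither overlapped between genotypes, unlike *Nr1i2* itself. *Tctex1d2*, 5.82 Mb away, went the other way, from 9.33 to 9.63 in WT to 9.70 to 10.42 in *Pxr*-/-. The other 5 called genes, *Senp5*, *Cep19*, *Zdhhc19*, *Csta2* and *Cstdc5*, were lower in *Pxr*-/-, with differences between -0.59 (*Senp5*) and -3.36 (*Csta2*). Whether these differences come from the deletion, the DNA around it or the breeding of the line was not tested.

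**Figure D5:**
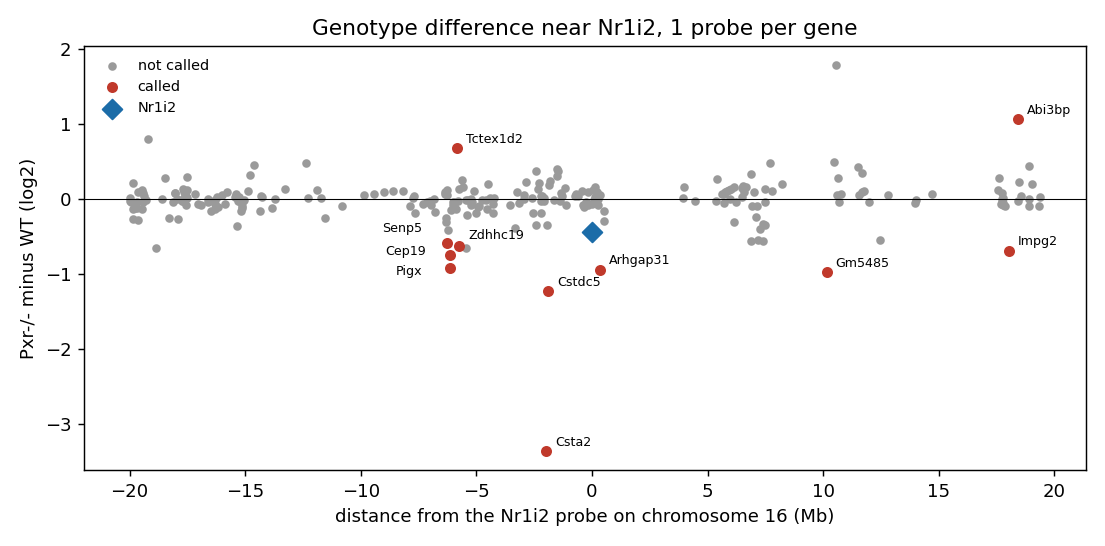
Log2 difference between *Pxr*-/- and WT, averaged over treatments, of genes within 20 Mb of the *Nr1i2* probe on chromosome 16, against the distance of their probe from it in Mb. Red points are called and the blue diamond is *Nr1i2* (-0.44). Called genes lie near -6 Mb, near -2 Mb and at 0.35 Mb, and 3 lie farther than 10 Mb away.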

How the data were processed

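The authors hybridised Cy3-labelled RNA to SurePrint G3 Mouse GE v2 arrays and, per the labels, read them with Agilent Feature Extraction 10.10.1.1. The scanner files hold deposited intensity values per spot, and the deposited table holds log2 values that the authors filtered, corrected for wash batch and normalized with CrossNorm. That table lacks 1 receptor probe and served as an alternative. Here median spot intensities were taken as log2 after control spots and 2392 values flagged as outliers were left out, spots of a probe were averaged, and arrays were quantile normalized. Probes well above background on at least 50% of the arrays of 1 group were tested (37591 of 56605) with limma 3.58.1 in R 4.3.3, in 1 fit over 4 groups with wash batch as a term, and the script was tested on simulated data. The number of arrays limits the precision. Genes of a list were named where called, at most 6 by size, with 13 chosen whatever they showed, of which 1 is not reported here. Symbols were updated through RefSeq accessions. Replicates are separate animals as far as the labels say. The receptors and lists were chosen with earlier results of these data known.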

Additional observations from a re-analysis of the deposited data

Results flagged for a closer look

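In 5 of 56 combinations of a receptor probe and a group, 1 array stood apart from the others of its group. Chance flags about 1 in 20 groups. *Pxr*-/- PCN replicate 6 was lowest in its group on the *Nr1i2* probe (11.38, next value 11.73) and on the *Vdr* probe A_52_P334562 (12.57, next value 12.91). *Pxr*-/- PCN replicate 4 was highest on the *Rxrb* probes A_51_P314830 (7.76, next value 7.37) and A_55_P2718880 (7.85, next value 7.25). *Pxr*-/- CONT replicate 6 was lowest on the *Nr1i3* probe A_51_P358256 (6.95, next value 7.54). Without *Pxr*-/- PCN replicate 6 the change of A_52_P334562 with PCN in *Pxr*-/- was 0.44 with an adjusted p of 0.0422, against 0.36 and 0.108 with all arrays. This fit was among the 2 of 23 that passed the adjusted p when 1 array was left out.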

How the results depend on the processing

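The number of receptor probes called was 0 in all 7 comparisons under every alternative, except that dropping the fold threshold gave 1 for genotype averaged over treatments (*Nr1i2*) and 1 for PCN averaged over genotypes (*Vdr*), and wash batch 2 alone gave 1 each for genotype without PCN, with PCN and averaged (*Nr1i2*) and for PCN in *Pxr*-/- (*Vdr*). Leaving out each array gave 0 throughout. The averaged genotype difference of *Nr1i2* missed an adjusted p of 0.05 with processed signals (-0.44, adjusted p = 0.0543), without the filter on dim probes (-0.44, 0.059) and within wash batch 1 (-0.12, 0.885). Without 1 array it was -0.51 to -0.39 over the 23 fits, and it missed that threshold in 17 of them (-0.45 to -0.39). The averaged PCN difference of *Vdr* A_52_P334562 missed it with arrays centred on their median (0.27, 0.0919) and within wash batch 1 (0.13, 0.823), and was 0.30 to 0.39 without 1 array. The causes were not tested, and a single wash batch holds fewer samples.

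With the replicate number as a block these were -0.42 (adjusted p = 0.0326) and 0.32 (adjusted p = 0.0448), and the replicate block changed no call. The numbers mark no shared animal or day, and same-numbered arrays correlated at -0.26 to 0.35 in their deviations from the group means.

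Signs turned, with a size of at least 0.1 on either side, in small differences that had not passed. Within wash batch 1 these were, for PCN in WT, *Nr1i2* (-0.12) and *Rxrb* A_51_P314830 (-0.05), and for PCN in *Pxr*-/-, *Rxra* A_51_P307370 (-0.11) and *Vdr* A_65_P19862 (-0.02). For genotype without PCN it was *Vdr* A_52_P334562 (0.04), and with PCN *Nr1i3* (-0.25), *Rxrb* A_51_P314830 (0.24) and A_55_P2718880 (0.20). For the interaction they were *Nr1i3* (-0.20), *Rxrb* A_51_P314830 (0.02) and *Vdr* A_52_P334562 (-0.22), for averaged genotype *Nr1i3* (-0.15), *Rxrb* A_51_P314830 (0.23) and A_55_P2718880 (0.24), and for averaged PCN *Nr1i2* (-0.15). Within wash batch 2 it was, for PCN in *Pxr*-/-, *Nr1i2* (0.16). For genotype in that batch they were *Rxrb* A_51_P314830 (-0.18) and A_55_P2718880 (-0.17) without PCN, and *Vdr* A_65_P19862 (0.01) with PCN. The interaction of *Vdr* A_65_P19862 turned in that batch (0.19) and with slide as a block (0.11). Leaving out 1 array turned *Rxrb* A_51_P314830 with PCN in WT (-0.02 to 0.21), between genotypes with PCN (-0.21 to 0.02) and in the interaction (-0.23 to 0.01), *Nr1i2* with PCN in *Pxr*-/- (-0.09 to 0.12), *Nr1i3* between genotypes with PCN (-0.12 to 0.15) and in the interaction (-0.11 to 0.15), and the interaction of *Vdr* A_65_P19862 (-0.12 to 0.11).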
